A study of Homo sapiens with 12 samples.

Results

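The genes described here encode the receptors, transducers, enzymes and scaffolds of G protein and cyclic AMP signalling. They were taken by symbol from a table of gene counts: every symbol without a hyphen that begins with the letters of a receptor family (numbered GPR, ADGR, LPAR, S1PR, PTGER, P2RY, ADRA, ADRB, HTR, EDNR, F2R, FZD, LGR or MC1R), of a G protein subunit (GNA, GNB, GNG), of a receptor regulator (RGS, GRK, ARRB), or of the cyclic AMP machinery (ADCY, PDE, PRKAC, PRKAR, AKAP, CREB). This gave 110 of the 8579 genes in the table. The 110 are 58 receptor genes, 11 G protein subunit genes, 16 genes of receptor kinases, arrestins and RGS proteins, 4 adenylyl cyclase genes, 13 phosphodiesterase genes, 1 gene of protein kinase A (PKA), 4 genes of PKA anchors and 3 of the CREB group. Some match by their letters only: PDE6D, which carries prenylated proteins, GNB1L, the Golgi and lysosomal proteins GPR89A, GPR89B, GPR137B, GPR137C and GPR155, and the pseudogenes ADCY10P1, ADGRF5P1 and HTR7P1. CREBRF, a regulator of the factor CREB3, also matches by its letters only.

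RNA was measured in A375, an established human melanoma cell line with an activating BRAF mutation. COMBO cells received SEL201 at 2.5 µM together with OTX015 at 50 nM, SEL201 cells and OTX015 cells received the same dose of the single agent, and UNTREATED cells carry the drug solvent DMSO as their treatment label. The treatment time was 72 h. SEL201 blocks MNK1 and MNK2, kinases that act on the cap-binding protein eIF4E. OTX015 keeps BET proteins from docking on acetylated histones. There were 3 libraries in each of the 4 groups, all from 1 cell line. Nothing in the labels ties a library to a culture of its own, and the p-values below therefore describe scatter among libraries that could be technical.

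A G protein-coupled receptor that binds its ligand makes the G protein alpha subunit exchange GDP for GTP, and the alpha subunit and the beta-gamma pair then act on effectors. Alpha subunits of the Gs family stimulate adenylyl cyclases, those of the Gi family inhibit most of them, and those of the Gq family activate phospholipase C beta. Cyclic AMP activates PKA and EPAC, phosphodiesterases degrade it, RGS proteins speed the return of alpha subunits to the GDP form, and in melanocytes MC1R signals through cyclic AMP and CREB to MITF and pigment genes.

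Promoter windows of 4 members are shown because these genes carry the largest cyclase fall, a large receptor fall, a phosphodiesterase fall and a rise of a Gi-family subunit, and because each holds a motif of a factor tied to this pathway or to immediate early signalling. They come from RefSeq on GRCh38.p14, run from 250 bases before to 50 bases after the annotated start, and are written 5′ to 3′ on the gene's strand. Capitals mark an AP-1 motif (TGAGTCA, or TGACTCA on the other strand) in ADCY7 (chr16:50266301-50266600, plus strand) and ADGRL4 (chr1:79006681-79006980, minus strand), and the palindromic cyclic AMP response element (CRE, TGACGTCA) in PDE4A (chr19:10416523-10416822, plus strand, 1 of the gene's 5 windows) and GNAO1 (chr16:56191239-56191538, plus strand).
ADCY7: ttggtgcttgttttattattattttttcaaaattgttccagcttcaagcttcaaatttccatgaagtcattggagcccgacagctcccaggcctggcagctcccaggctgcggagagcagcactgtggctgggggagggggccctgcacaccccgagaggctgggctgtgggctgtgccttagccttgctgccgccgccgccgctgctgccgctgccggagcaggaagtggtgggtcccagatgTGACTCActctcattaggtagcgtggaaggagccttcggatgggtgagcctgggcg
ADGRL4: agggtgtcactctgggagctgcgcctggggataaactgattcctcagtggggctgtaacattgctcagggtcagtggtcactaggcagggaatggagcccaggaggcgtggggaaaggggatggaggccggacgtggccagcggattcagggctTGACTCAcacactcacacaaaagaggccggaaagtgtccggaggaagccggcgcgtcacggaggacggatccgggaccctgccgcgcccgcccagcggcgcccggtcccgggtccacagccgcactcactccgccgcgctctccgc
PDE4A: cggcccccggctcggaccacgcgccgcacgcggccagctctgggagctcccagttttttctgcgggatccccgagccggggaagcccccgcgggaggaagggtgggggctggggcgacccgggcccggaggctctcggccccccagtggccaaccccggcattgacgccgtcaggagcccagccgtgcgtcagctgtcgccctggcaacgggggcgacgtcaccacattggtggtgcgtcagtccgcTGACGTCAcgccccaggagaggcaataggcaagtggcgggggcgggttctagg
GNAO1: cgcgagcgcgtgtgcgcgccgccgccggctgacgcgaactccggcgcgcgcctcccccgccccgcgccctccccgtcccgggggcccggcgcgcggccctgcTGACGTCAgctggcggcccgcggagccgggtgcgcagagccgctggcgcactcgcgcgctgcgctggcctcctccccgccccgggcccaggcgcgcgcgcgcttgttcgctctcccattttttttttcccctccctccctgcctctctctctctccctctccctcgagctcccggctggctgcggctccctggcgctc
The first capital lies 6 bases before the start in ADCY7, 96 in ADGRL4, 3 in PDE4A and 148 in GNAO1.

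Column totals over the 8579 genes ran from 15146071 to 24111541 counts, and the members took 1.04% to 1.11% of them. Mean counts of the genes in the table ran from 78.67 to 9158.7. Pathway genes it does not hold, among them GNAS, PRKACA, PRKAR1A and CREB1, were not analysed here. Levels are in CPM, counts scaled to a common total over the genes in this table. In bulk RNA, fewer cells with a transcript and less of it per cell cannot be told apart. Of 13 melanocyte-lineage markers 8 were measured, with UNTREATED means of 443 CPM for GPNMB, 173 CPM for MITF, 4.87 CPM for PMEL and 4.19 CPM for MLANA. Of these 8 markers, 3 were higher and 4 lower in COMBO, against 28.3% and 29.6% of all genes tested. Measured markers of other cell types were KRT14 (38.8 CPM in COMBO, 166 CPM in UNTREATED), LYZ (20.7 and 45.4 CPM), LUM (7.85 and 45.9 CPM), DCN (2.38 and 12.7 CPM), COL1A1 (8.94 and 15 CPM), PDGFRA (25.2 and 17.9 CPM) and KDR (124 and 102 CPM), each pair with COMBO before UNTREATED, and their part in the results below was not tested. In GENCODE v29, exons of 12 members overlap another gene on the same strand and those of 40 overlap one on the other strand, GNAL, GNAO1, PDE2A and PDE10A among these 40. The 4 libraries numbered 3 stood apart from the other 8 on the second principal component.

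Signalling genes moved in both directions in every treated group, and receptors, a cyclase and a phosphodiesterase made the largest falls. In COMBO against UNTREATED, 34 of the 110 members were higher (30.9%, against 28.3% of all genes tested) and 40 were lower (36.4%, against 29.6%). Calls here and below were made by edgeR's quasi-likelihood test at a Benjamini-Hochberg adjusted p under 0.05. They ignore the replicate number unless the replicate block is named. In SEL201 against UNTREATED, 12 members were higher (10.9%, background 10.1%) and 14 lower (12.7%, background 11.1%). In OTX015 against UNTREATED, 27 were higher (24.5%, background 23.3%) and 33 lower (30.0%, background 24.7%). The shares that rose were near the background in all 3 comparisons. The median log2 change of the members in COMBO was -0.11, against 0.002 for all genes, and their median absolute log2 change was 0.37, against 0.26. With the replicate number as a block, the SEL201 counts were 22 higher (20%, background 18.0%) and 28 lower (25.5%, background 19.1%). The COMBO counts with this block were 39 higher (35.5%, background 33.5%) and 48 lower (43.6%, background 34.2%). For OTX015 they were 36 higher (32.7%, background 29.7%) and 42 lower (38.2%, background 29.9%).

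At a change of at least 2-fold in COMBO, 4 members rose (3.64%, background 2.03%) and 6 fell (5.45%, background 6.81%). The 6 were P2RY6, PDE2A, ADGRL4, ADCY7, GPR39 and GNB3, and the 4 were S1PR3, GPR155, ADCY1 and GPR15. Of these, GPR155 matches the symbol rule by its letters only. Without the replicate block, no call was made in any of the 6 contrasts for 30 members (27.3%, against 37.1% of all genes). Some of these 30 did pass with the block, RGS2 and PDE4B among them. Of the 74 members called in COMBO, 63 kept the call whichever single library was left out.

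**Figure D1:**
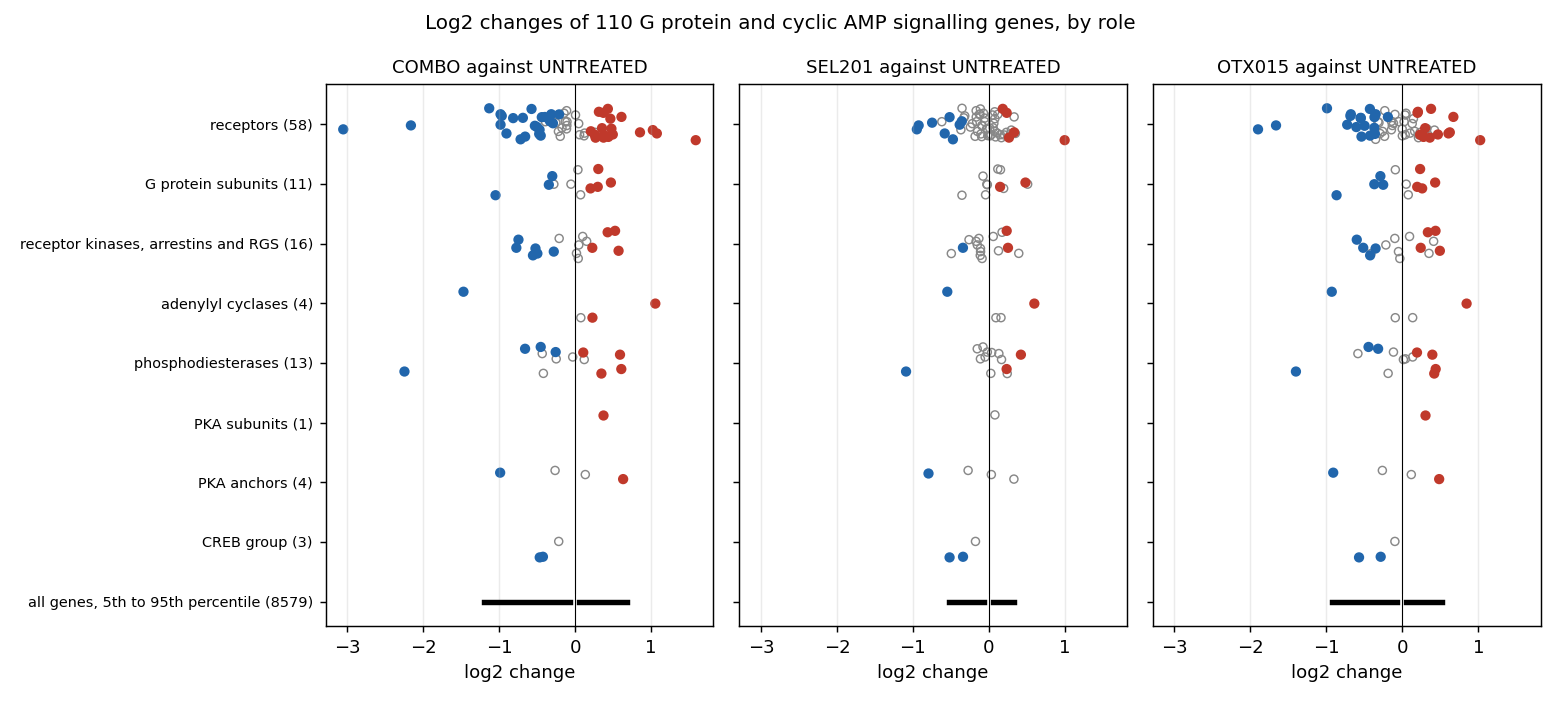
Log2 change against UNTREATED (x axis) of each of the 110 members, 1 point per gene, in rows by role, for COMBO, SEL201 and OTX015. Filled points passed an adjusted p of 0.05 in edgeR (red higher, blue lower) and open points did not, and the black bar spans the 5 to 95 percentile range of all 8579 genes, -1.20 to 0.68 in COMBO.

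Among the receptors, 18 of 58 rose (31%, background 28.3%) and 23 fell (39.7%, background 29.6%) in COMBO. P2RY6, a Gq-coupled receptor for the nucleotide UDP, made the largest change of any member. P2RY6 was at 1.98, 1.94 and 1.32 CPM in COMBO, at 7.66, 8.91 and 6.46 CPM in SEL201, at 3.11, 4.01 and 4.78 CPM in OTX015 and at 14.4, 15.8 and 14.4 CPM in UNTREATED. No 2 groups overlapped. The log2 change of P2RY6 was -3.05 ± 0.20 (SE) in COMBO (edgeR adjusted p = 1.4e-08), -0.95 ± 0.17 in SEL201 (adjusted p = 0.0012) and -1.90 ± 0.18 in OTX015 (adjusted p = 1.1e-06), and it was also lower in COMBO than in OTX015 by a log2 change of -1.15 ± 0.21 (adjusted p = 0.0054). Its lowest library holds 20 counts, so the COMBO level is the least precisely measured of these.

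ADGRL4, an adhesion receptor known for its expression in endothelium, was at 13, 13.1 and 13.9 CPM in COMBO, at 30.9, 31.2 and 32.2 CPM in SEL201, at 19.0, 21.2 and 16.2 CPM in OTX015 and at 58.8, 56.0 and 64.1 CPM in UNTREATED. The 4 groups were separate, in the order COMBO, OTX015, SEL201, UNTREATED. The log2 change was -2.16 ± 0.10 in COMBO (edgeR adjusted p = 5.3e-10), -0.92 ± 0.09 in SEL201 (adjusted p = 1.6e-05) and -1.66 ± 0.10 in OTX015 (adjusted p = 1.6e-08). KDR, the endothelial marker measured, had a log2 change of 0.28 in COMBO (adjusted p = 0.34), and of 0.31 with the replicate block (adjusted p = 2.2e-05). Over the 9 adhesion receptor genes, 2 rose and 5 fell in COMBO (22.2% and 55.6%, background 28.3% and 29.6%). ADGRA2 fell by 0.82 and ADGRL1 by 0.57 on the log2 scale (adjusted p = 4e-06 and 0.00013), while ADGRL3 rose by 0.85 and the very large ADGRV1 by 0.46 (adjusted p = 0.00067 and 0.00015).

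GPR39, a zinc-sensing receptor, was at 6.72, 6.06 and 7.01 CPM in COMBO, at 10.2, 11.5 and 12.3 CPM in SEL201, at 6.28, 6.75 and 8.74 CPM in OTX015 and at 14.2, 13.3 and 15.8 CPM in UNTREATED. COMBO and OTX015 overlapped each other and lay below the other libraries. GPR39 had a log2 change of -1.13 ± 0.14 in COMBO (edgeR adjusted p = 1.1e-05), -0.99 ± 0.14 in OTX015 (adjusted p = 6e-05) and -0.35 ± 0.14 in SEL201 (adjusted p = 0.09, and 0.027 with the replicate block). GPR39 shares exon positions with LYPD1 on the other strand, and the strand setting of the counting is not given in the sources used here.

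S1PR3, a receptor for sphingosine 1-phosphate that couples to Gi, Gq and G12/13 proteins, made the largest rise. It was at 12.5, 12 and 15.3 CPM in COMBO, at 9.99, 7.41 and 8.96 CPM in SEL201, at 8.92, 7.62 and 10.4 CPM in OTX015 and at 4.59, 4.19 and 4.42 CPM in UNTREATED. All treated libraries lay above all UNTREATED ones, and the single agents overlapped each other. The log2 change was 1.59 ± 0.16 in COMBO (edgeR adjusted p = 1.3e-06), 1 ± 0.16 in SEL201 (adjusted p = 0.0007) and 1.02 ± 0.16 in OTX015 (adjusted p = 0.00015). Per kilobase of exon, S1PR3 stayed low, at 0.977 CPM in COMBO and 0.324 CPM in UNTREATED. S1PR5, another receptor of the same lipid, stood at 11.6 CPM per kilobase in COMBO and 22.7 CPM per kilobase in UNTREATED, and fell by 0.97 on the log2 scale in COMBO (adjusted p = 3.9e-06). The receptors of lysophosphatidic acid also split, since LPAR3 rose by 0.43 (adjusted p = 2.5e-07) and LPAR2 and LPAR6 fell by 0.50 and 0.47 (adjusted p = 0.0057 and 0.0075).

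The protease-activated thrombin receptor F2R was among the receptors with high levels per length, with 70.5 CPM per kilobase in COMBO and 92.9 CPM per kilobase in UNTREATED, and fell by 0.40 on the log2 scale (edgeR adjusted p = 0.00017). F2RL2 fell by 0.72 (adjusted p = 0.001), and it overlaps IQGAP2 on the other strand. P2RY1, an ADP receptor coupled to Gq, rose by 0.26 (adjusted p = 0.0015). P2RY11, which overlaps PPAN and the PPAN-P2RY11 readthrough gene on its own strand, fell by 0.66 (adjusted p = 2.1e-05), a value that cannot be given to P2RY11 alone.

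Among amine and peptide hormone receptors, the adrenergic receptors ADRA1B and ADRB1 fell in COMBO by 0.91 and 0.69 on the log2 scale (edgeR adjusted p = 0.00049 and 0.0046).

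MC1R, the melanocortin receptor of melanocytes, was at 38.2, 41.8 and 51.2 CPM in COMBO, at 39.6, 37.3 and 45.2 CPM in SEL201, at 40, 42.4 and 43.4 CPM in OTX015 and at 35.6, 33.6 and 39.5 CPM in UNTREATED. COMBO and SEL201 overlapped UNTREATED. The log2 change of 0.27 ± 0.11 in COMBO just passed (edgeR adjusted p = 0.047) and was lost when any 1 of 8 libraries was left out, with an adjusted p of 0.054 to 0.25. Without COMBO replicate 3 the log2 change was 0.14, and the replicate block brought the adjusted p to 0.003. MC1R shares exons with 3 genes on its own strand, TCF25 among them, so its counts are uncertain.

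Of the 8 genes of Frizzled receptors, which bind Wnt ligands, and LGR receptors, 4 rose and 1 fell in COMBO (50% and 12.5%, background 28.3% and 29.6%). FZD2 fell by 0.98 on the log2 scale (edgeR adjusted p = 1.2e-07) to 36.0 CPM per kilobase in COMBO, against 71.3 CPM per kilobase in UNTREATED. FZD3, FZD4 and FZD9 rose by 0.31, 0.35 and 0.37 (adjusted p = 0.00026, 0.0018 and 0.0013), and LGR4, an R-spondin receptor, by 0.44 (adjusted p = 1.4e-05). Of the 21 numbered GPR genes, 8 rose and 7 fell (38.1% and 33.3%, background 28.3% and 29.6%). GPR155 and GPR15, chosen after their values were seen, are given here in COMBO and UNTREATED only. GPR155 reached 23.4, 20.2 and 25.3 CPM in COMBO, against 11.9, 9.83 and 10.9 CPM in UNTREATED. GPR15 reached 16.2, 15.2 and 15.7 CPM in COMBO, against 7.25, 8.5 and 7.44 CPM in UNTREATED. Their log2 changes were 1.07 and 1.02 (adjusted p = 4e-06 and 0.00018). GPR161, known as a Gs-coupled receptor of primary cilia, fell by 0.45 (adjusted p = 1.3e-05).

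**Figure D2:**
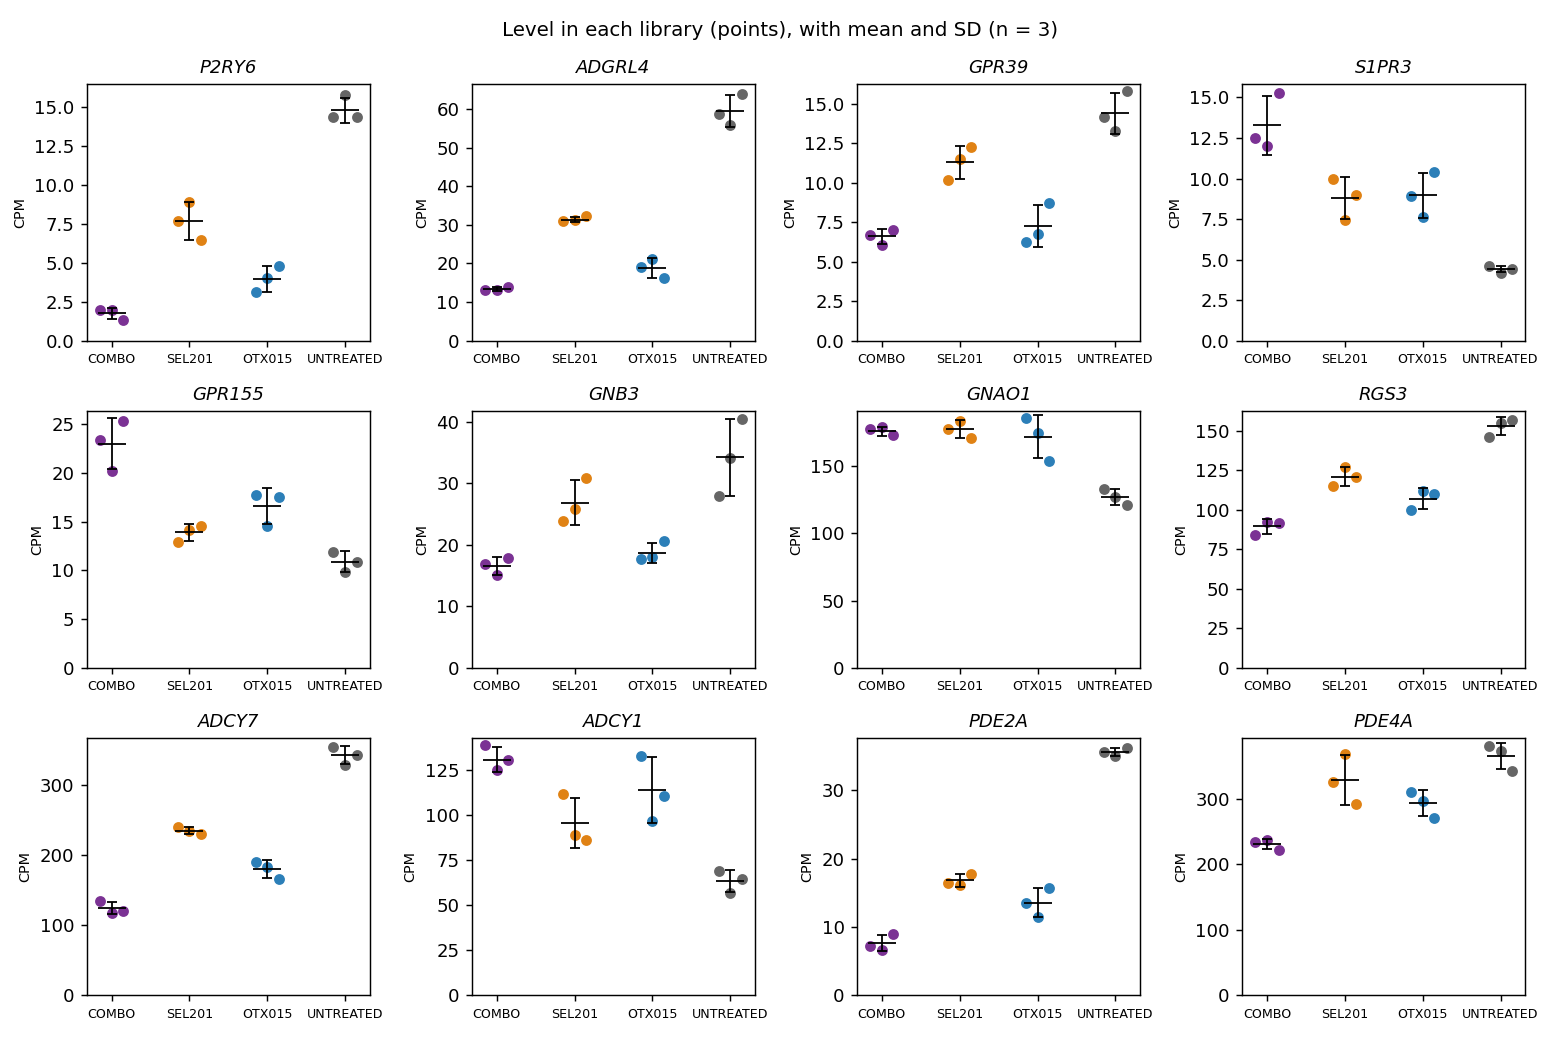
CPM (y axis, from 0) of 12 members in each library, as points by group in the order COMBO, SEL201, OTX015, UNTREATED, with the mean and SD of 3 libraries. COMBO libraries lie lowest for P2RY6, ADGRL4, ADCY7, PDE2A and PDE4A and highest for S1PR3 and GPR155, while GNAO1 sits at a like level in all 3 treated groups.

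Of the 11 G protein subunit genes, 4 rose and 3 fell in COMBO (36.4% and 27.3%, background 28.3% and 29.6%). GNB3, a beta subunit, was at 16.8, 15 and 17.8 CPM in COMBO, at 23.8, 25.8 and 30.9 CPM in SEL201, at 17.7, 18.0 and 20.6 CPM in OTX015 and at 27.9, 34.1 and 40.5 CPM in UNTREATED. COMBO and OTX015 lay below UNTREATED, and SEL201 overlapped it. The log2 change was -1.05 ± 0.14 in COMBO (edgeR adjusted p = 1.6e-05), -0.87 ± 0.14 in OTX015 (adjusted p = 0.00014) and -0.35 ± 0.14 in SEL201 (adjusted p = 0.081, and 0.0029 with the replicate block). GNB3 overlaps CDCA3 on the other strand. GNB5, a beta subunit that pairs with a class of RGS proteins, rose by 0.30 in COMBO (adjusted p = 3e-05), and GNG11, a gamma subunit, fell by 0.30 (adjusted p = 0.0043).

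The Gi-family alpha subunits Gαo and Gαi1 rose in COMBO. GNAO1 was at 178, 179 and 173 CPM in COMBO, at 178, 184 and 171 CPM in SEL201, at 186, 175 and 154 CPM in OTX015 and at 133, 127 and 121 CPM in UNTREATED. Treated libraries all lay above UNTREATED, and the 3 treated groups overlapped one another. For GNAO1 the log2 change was 0.47 ± 0.06 in COMBO (edgeR adjusted p = 1.8e-05), 0.48 ± 0.06 in SEL201 (adjusted p = 0.00012) and 0.43 ± 0.06 in OTX015 (adjusted p = 6.7e-05). GNAI1 was at 191, 198 and 188 CPM in COMBO, at 169, 175 and 163 CPM in SEL201, at 185, 188 and 176 CPM in OTX015 and at 163, 161 and 143 CPM in UNTREATED. COMBO and OTX015 lay above UNTREATED, while the lowest SEL201 and the highest UNTREATED library were both at 163 CPM. The GNAI1 log2 change was 0.30 ± 0.06 in COMBO (adjusted p = 0.00026) and 0.23 ± 0.06 in OTX015 (adjusted p = 0.0028). In SEL201 it was 0.12 ± 0.06 (adjusted p = 0.14, and 0.023 with the replicate block). GNAZ, also of the Gi family, had a log2 change of 0.04 in COMBO (adjusted p = 0.83).

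GNAL, a stimulatory alpha subunit best known from olfactory neurons, moved the other way. It was at 20.1, 19.0 and 19.6 CPM in COMBO, at 24.3, 25.7 and 23.7 CPM in SEL201, at 22.4, 18.7 and 21.6 CPM in OTX015 and at 24.9, 26.8 and 22.9 CPM in UNTREATED. COMBO and OTX015 lay below UNTREATED, while SEL201 overlapped it. The log2 change was -0.35 ± 0.10 in COMBO (edgeR adjusted p = 0.006), -0.25 ± 0.09 in OTX015 (adjusted p = 0.04) and -0.02 ± 0.09 in SEL201 (adjusted p = 0.91). The OTX015 call was lost when UNTREATED replicate 1 or 2, SEL201 replicate 1 or OTX015 replicate 2 or 3 was left out, with log2 changes of -0.25, -0.19, -0.25, -0.18 and -0.28 in that order.

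Of the 16 genes of receptor kinases, arrestins and RGS proteins, 4 rose and 6 fell in COMBO (25% and 37.5%, background 28.3% and 29.6%). RGS3 was at 84.2, 92.3 and 91.6 CPM in COMBO, at 115, 127 and 121 CPM in SEL201, at 99.6, 112 and 110 CPM in OTX015 and at 146, 155 and 157 CPM in UNTREATED. All 4 groups were separate. The log2 change of RGS3 was -0.78 ± 0.06 in COMBO (edgeR adjusted p = 1.2e-07), -0.34 ± 0.06 in SEL201 (adjusted p = 0.0014) and -0.52 ± 0.06 in OTX015 (adjusted p = 1.1e-05). RGS14, which acts on Gi-family subunits, was at 25.2, 25.1 and 20.8 CPM in COMBO, at 32.9, 36.9 and 30.1 CPM in SEL201, at 28.3, 26.9 and 23.8 CPM in OTX015 and at 39.9, 38.7 and 41.2 CPM in UNTREATED. All treated libraries lay below UNTREATED. RGS14 had a log2 change of -0.75 ± 0.10 in COMBO (adjusted p = 2.2e-05), -0.60 ± 0.10 in OTX015 (adjusted p = 0.00023) and -0.26 ± 0.10 in SEL201 (adjusted p = 0.083, and 0.012 with the replicate block).

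RGS17 and RGS20 belong to the same subfamily, which acts on Gαz and other Gi-family subunits, and moved in opposite directions. RGS19, also of this subfamily, fell like RGS20, by 0.52 on the log2 scale in COMBO (edgeR adjusted p = 2.4e-07). RGS17 was at 118, 122 and 103 CPM in COMBO, at 92.9, 85.3 and 73.2 CPM in SEL201, at 112, 114 and 99.0 CPM in OTX015 and at 83.8, 79.2 and 67.3 CPM in UNTREATED. COMBO and OTX015 libraries lay above UNTREATED, and the library numbered 3 was the lowest in each group. For RGS17 the log2 change was 0.57 ± 0.10 in COMBO (edgeR adjusted p = 0.00022), 0.49 ± 0.10 in OTX015 (adjusted p = 0.0011) and 0.13 ± 0.10 in SEL201 (adjusted p = 0.42). RGS20 was at 16.7, 20.1 and 18.9 CPM in COMBO, at 26.1, 21.5 and 28.2 CPM in SEL201, at 15.8, 21.9 and 23.1 CPM in OTX015 and at 23.8, 30.2 and 27.7 CPM in UNTREATED. COMBO and OTX015 lay below UNTREATED, and SEL201 overlapped it. Its log2 change was -0.56 ± 0.15 in COMBO (adjusted p = 0.005), -0.42 ± 0.15 in OTX015 (adjusted p = 0.028) and -0.11 ± 0.14 in SEL201 (adjusted p = 0.64). The OTX015 call for RGS20 was lost without UNTREATED replicate 2 or 3 or OTX015 replicate 1, at log2 changes of -0.34, -0.41 and -0.28.

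RGS12, chosen after its values were seen, was at 136, 134 and 142 CPM in COMBO, at 139, 137 and 144 CPM in SEL201, at 137, 136 and 145 CPM in OTX015 and at 124, 105 and 123 CPM in UNTREATED. All treated libraries lay above UNTREATED, and the treated groups overlapped one another. It had a log2 change of 0.23 ± 0.06 in COMBO (edgeR adjusted p = 0.0061), 0.25 ± 0.06 in SEL201 (adjusted p = 0.0095) and 0.24 ± 0.06 in OTX015 (adjusted p = 0.0049).

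Per kilobase, RGS10 and RGS2 were among the best measured RGS genes. RGS10 rose by 0.53 on the log2 scale in COMBO (edgeR adjusted p = 1.1e-05), at 131 CPM per kilobase in COMBO and 90.9 CPM per kilobase in UNTREATED. RGS2, which acts on Gq and was chosen here after its values were seen, was at 276, 277 and 196 CPM in COMBO, at 213, 227 and 161 CPM in SEL201, at 332, 333 and 235 CPM in OTX015 and at 241, 254 and 181 CPM in UNTREATED. In each group the library numbered 3 was the lowest, OTX015 lay above SEL201, and each treated group overlapped UNTREATED. Its log2 change of 0.15 ± 0.17 in COMBO, -0.17 ± 0.17 in SEL201 and 0.41 ± 0.17 in OTX015 did not pass (adjusted p = 0.47, 0.54 and 0.058), and with the replicate block all 3 did (adjusted p = 0.00064, 0.00042 and 2.8e-11). Of the arrestins and receptor kinases, ARRB1 fell by 0.28 in COMBO (adjusted p = 7.8e-05), GRK5 rose by 0.43 (adjusted p = 4e-05), and ARRB2 had a log2 change of 0.10 (adjusted p = 0.1, and 0.011 with the replicate block).

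Among the measured adenylyl cyclase genes ADCY1, ADCY7 and ADCY9 the makeup changed: ADCY7 fell, ADCY1 rose, and both did so in every treated group. Cyclase genes that the table does not hold were not analysed here. ADCY7, a cyclase that G protein beta-gamma pairs can stimulate together with Gs, was at 134, 117 and 120 CPM in COMBO, at 240, 234 and 230 CPM in SEL201, at 191, 183 and 166 CPM in OTX015 and at 355, 329 and 344 CPM in UNTREATED. The 4 groups were separate, COMBO lowest. The log2 change of ADCY7 was -1.47 ± 0.06 in COMBO (edgeR adjusted p = 2.2e-10), -0.55 ± 0.06 in SEL201 (adjusted p = 2.7e-05) and -0.93 ± 0.06 in OTX015 (adjusted p = 3.8e-08). COMBO was also below OTX015, by a log2 change of -0.54 ± 0.06 (adjusted p = 0.00016), and below SEL201, by -0.93 ± 0.06 (adjusted p = 8.6e-08). ADCY7 shares exon positions with BRD7 on the other strand.

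ADCY1, a cyclase stimulated by calcium and calmodulin and best known from brain, was at 139, 125 and 131 CPM in COMBO, at 112, 88.9 and 86.5 CPM in SEL201, at 133, 96.8 and 111 CPM in OTX015 and at 68.8, 56.6 and 64.6 CPM in UNTREATED. Each treated library lay above UNTREATED, and COMBO overlapped OTX015. The log2 change was 1.05 ± 0.12 in COMBO (edgeR adjusted p = 3.4e-06), 0.60 ± 0.12 in SEL201 (adjusted p = 0.0027) and 0.85 ± 0.12 in OTX015 (adjusted p = 4.8e-05). ADCY9, a widely expressed cyclase, was at 347, 341 and 394 CPM in COMBO, at 345, 348 and 338 CPM in SEL201, at 353, 325 and 337 CPM in OTX015 and at 332, 295 and 295 CPM in UNTREATED. COMBO and SEL201 lay above UNTREATED, and OTX015 overlapped it. ADCY9 had a log2 change of 0.23 ± 0.06 in COMBO (adjusted p = 0.0044), 0.16 ± 0.06 in SEL201 (adjusted p = 0.069, and 0.0042 with the replicate block) and 0.14 ± 0.06 in OTX015 (adjusted p = 0.072, and 0.0089 with the block). Without the 4 libraries numbered 3 the COMBO value for ADCY9 was 0.13 (adjusted p = 0.07).

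Per kilobase of exon, ADCY7 was the highest of these 3 cyclase genes in UNTREATED and ADCY9 the highest in COMBO. ADCY7 made up 24.4% ± 1.81 of their summed level in COMBO, 40.4% ± 0.241 in SEL201, 33.8% ± 1.79 in OTX015 and 53.7% ± 1.02 in UNTREATED (SD, n = 3 each). ADCY1 made up 16.3% ± 0.806 in COMBO, 10.3% ± 1.24 in SEL201, 13.3% ± 1.45 in OTX015 and 6.19% ± 0.342 in UNTREATED. The summed level itself was 58.6 ± 2.93 CPM per kilobase in COMBO, 67.3 ± 1.85 in SEL201, 61.7 ± 3.51 in OTX015 and 74.0 ± 3.79 in UNTREATED. Each treated group was separate from UNTREATED in all 3 measures. The 2-sided exact permutation test then can only give p = 0.1, the smallest that 3 libraries against 3 allow, and adds nothing to that separation.

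**Figure D3:**
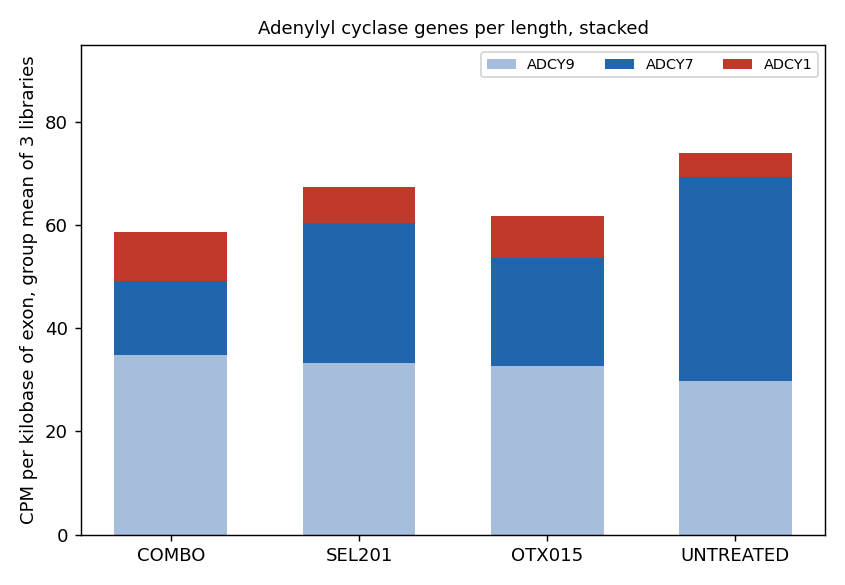
Mean level per kilobase of exon (y axis, CPM per kilobase, stacked bars from 0) of ADCY1, ADCY7 and ADCY9 in COMBO, SEL201, OTX015 and UNTREATED, 3 libraries each. The ADCY7 part is 14.3 in COMBO and 39.7 in UNTREATED, and the ADCY1 part is 9.52 in COMBO and 4.58 in UNTREATED.

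Of the 13 phosphodiesterase genes, 4 rose and 4 fell in COMBO (30.8% each, background 28.3% and 29.6%). PDE2A, which cyclic GMP stimulates and which degrades both cyclic nucleotides, was at 7.24, 6.57 and 8.87 CPM in COMBO, at 16.4, 16.1 and 17.8 CPM in SEL201, at 13.5, 11.4 and 15.7 CPM in OTX015 and at 35.6, 35.1 and 36.2 CPM in UNTREATED. The groups were separate, and UNTREATED lay highest. For PDE2A the log2 change was -2.25 ± 0.13 in COMBO (edgeR adjusted p = 5.4e-09), -1.09 ± 0.12 in SEL201 (adjusted p = 3.5e-05) and -1.40 ± 0.12 in OTX015 (adjusted p = 6.8e-07). COMBO was below OTX015 by a log2 change of -0.85 ± 0.13 (adjusted p = 0.0021).

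PDE4A, of the cyclic AMP-specific family, was at 234, 237 and 222 CPM in COMBO, at 325, 369 and 292 CPM in SEL201, at 310, 297 and 271 CPM in OTX015 and at 380, 373 and 343 CPM in UNTREATED. COMBO lay below all other libraries, and SEL201 overlapped UNTREATED. Its log2 change was -0.66 ± 0.07 in COMBO (edgeR adjusted p = 3.3e-06), -0.32 ± 0.07 in OTX015 (adjusted p = 0.0026) and -0.15 ± 0.07 in SEL201 (adjusted p = 0.17, and 0.0031 with the replicate block). PDE4D fell by 0.26 in COMBO (adjusted p = 0.0067). PDE4B, chosen after its values were seen, was at 77.0, 84.3 and 59.3 CPM in COMBO, at 111, 115 and 75.2 CPM in SEL201, at 95, 100 and 64.5 CPM in OTX015 and at 115, 110 and 70.0 CPM in UNTREATED. Its libraries numbered 3 were again the lowest of each group, and its log2 change of -0.42 ± 0.21 in COMBO had an adjusted p of 0.1, and of 1.8e-07 with the replicate block. The 3 PDE4 genes together stood at 57.1 ± 3.12 CPM per kilobase in COMBO, 77.3 ± 9.14 in SEL201, 69.3 ± 5.72 in OTX015 and 82.8 ± 7.20 in UNTREATED. The 2-sided exact permutation test of this sum against UNTREATED gave p = 0.1 for COMBO and for OTX015, and 0.5 for SEL201. The value of 0.1 is the smallest possible and follows from the separation of these groups from UNTREATED. By replicate number the sum was lower in SEL201 than in UNTREATED in all 3 pairs. It was 77.9, 86.2 and 67.9 CPM per kilobase in SEL201 and 87.2, 86.7 and 74.5 in UNTREATED. With all 3 pairs in the same direction, the 2-sided exact sign-flip test can only give p = 0.25, the smallest that 3 pairs allow.

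PDE10A, which degrades both cyclic nucleotides, rose. It was at 61.4, 55.9 and 66.4 CPM in COMBO, at 54.9, 53.2 and 55.4 CPM in SEL201, at 55.3, 54.3 and 50.8 CPM in OTX015 and at 44.1, 40.6 and 37.2 CPM in UNTREATED. The 9 treated libraries lay above UNTREATED. The log2 change of PDE10A was 0.59 ± 0.08 in COMBO (edgeR adjusted p = 2.3e-05), 0.42 ± 0.08 in SEL201 (adjusted p = 0.0022) and 0.40 ± 0.08 in OTX015 (adjusted p = 0.0011). PDE6D was at 262, 253 and 260 CPM in COMBO, at 201, 201 and 196 CPM in SEL201, at 230, 221 and 238 CPM in OTX015 and at 171, 169 and 169 CPM in UNTREATED. Its groups were separate and COMBO highest, with a log2 change of 0.61 ± 0.04 in COMBO (adjusted p = 1.5e-08), 0.23 ± 0.04 in SEL201 (adjusted p = 0.00081) and 0.44 ± 0.04 in OTX015 (adjusted p = 7.7e-07). PDE6D overlaps COPS7B on the other strand. PDE9A, specific for cyclic GMP, fell by 0.45 in COMBO (adjusted p = 0.00088).

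**Figure D4:**
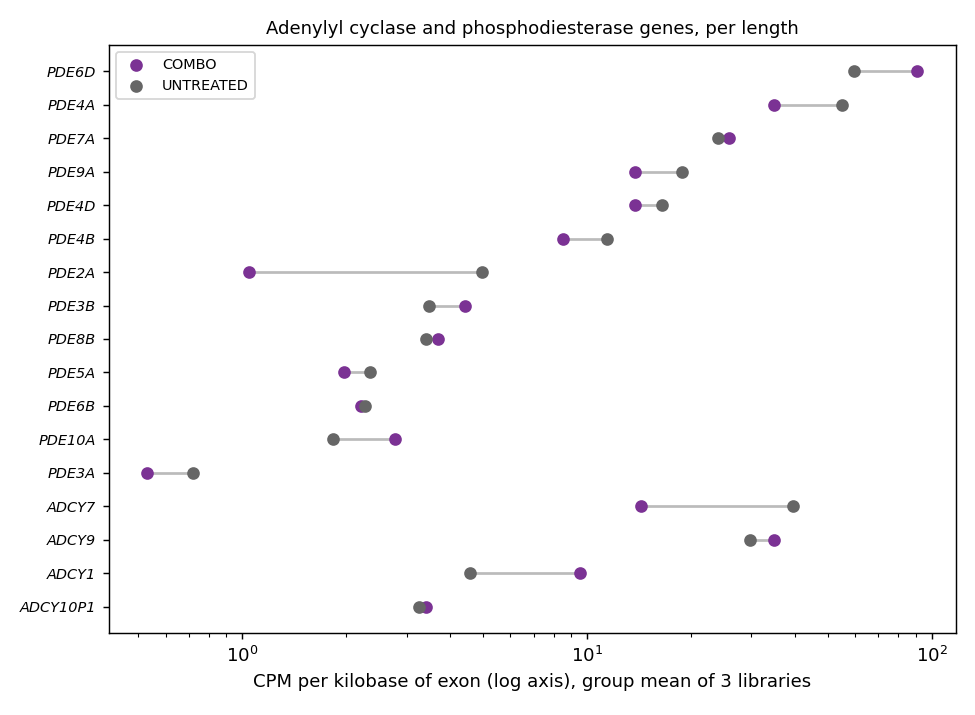
Level per kilobase of exon (x axis, CPM per kilobase, log scale) of the 4 adenylyl cyclase and 13 phosphodiesterase genes in COMBO (purple) and UNTREATED (grey), as means of 3 libraries joined by a line. PDE2A spans the widest gap on this scale, at 1.05 in COMBO and 4.96 in UNTREATED, and PDE6D is the highest of the 17 genes in both groups.

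The PKA catalytic subunit gene PRKACB was at 412, 432 and 426 CPM in COMBO, at 358, 336 and 349 CPM in SEL201, at 412, 405 and 397 CPM in OTX015 and at 330, 332 and 325 CPM in UNTREATED. Each treated library lay above UNTREATED. PRKACB had a log2 change of 0.36 ± 0.04 in COMBO (edgeR adjusted p = 9.5e-07), 0.30 ± 0.04 in OTX015 (adjusted p = 1.2e-05) and 0.08 ± 0.04 in SEL201 (adjusted p = 0.13). Of the 4 PKA anchor genes, 1 rose and 1 fell in COMBO (25% each, background 28.3% and 29.6%). AKAP5, which tethers PKA at the plasma membrane, was at 21.2, 24.2 and 25.5 CPM in COMBO, at 18.8, 21.5 and 17.1 CPM in SEL201, at 19.0, 23.4 and 21.5 CPM in OTX015 and at 15.1, 13.9 and 16.8 CPM in UNTREATED. The 9 treated libraries lay above UNTREATED. For AKAP5 the log2 change was 0.63 ± 0.12 in COMBO (adjusted p = 0.0004), 0.48 ± 0.12 in OTX015 (adjusted p = 0.004) and 0.33 ± 0.12 in SEL201 (adjusted p = 0.066, and 0.015 with the replicate block).

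AKAP6, an anchor of the nuclear envelope in muscle, was at 12.3, 12.6 and 13.2 CPM in COMBO, at 14.0, 16.6 and 12.8 CPM in SEL201, at 12.2, 15.8 and 12.1 CPM in OTX015 and at 25.2, 34.5 and 15.6 CPM in UNTREATED. The UNTREATED libraries spread widely, and their lowest value overlapped SEL201 and OTX015. Its log2 change was -0.99 ± 0.22 in COMBO (edgeR adjusted p = 0.0014), -0.91 ± 0.22 in OTX015 (adjusted p = 0.0032) and -0.80 ± 0.22 in SEL201 (adjusted p = 0.017). Without UNTREATED replicate 2 the SEL201 value was -0.50 (adjusted p = 0.095), and without SEL201 replicate 1 or 3 its adjusted p was 0.061 and 0.057.

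In the CREB group, 2 of 3 genes fell in COMBO (66.7%, background 29.6%), and 1 of these 2, CREBRF, matches the symbol rule by its letters only. CREB5, a relative of CREB that can pair with Jun, was at 9.56, 7.17 and 9.39 CPM in COMBO, at 8.49, 6.91 and 9.88 CPM in SEL201, at 7.28, 7.75 and 9.25 CPM in OTX015 and at 11.9, 11.8 and 12.4 CPM in UNTREATED. Each treated library lay below UNTREATED. The log2 change of CREB5 was -0.47 ± 0.15 in COMBO (edgeR adjusted p = 0.019), -0.52 ± 0.16 in SEL201 (adjusted p = 0.029) and -0.57 ± 0.16 in OTX015 (adjusted p = 0.0077). The COMBO call was lost without COMBO replicate 2, at -0.34, and the SEL201 call without any UNTREATED replicate or SEL201 replicate 1 or 2, at -0.53 to -0.39. CREBRF, a regulator of the related factor CREB3, was at 70.7, 65.9 and 63.6 CPM in COMBO, at 73.5, 67.9 and 71.3 CPM in SEL201, at 74.1, 66.0 and 80.8 CPM in OTX015 and at 87.9, 88.6 and 92.7 CPM in UNTREATED. CREBRF libraries of the treated groups all lay below UNTREATED. It fell in COMBO, SEL201 and OTX015, by 0.42, 0.34 and 0.28 on the log2 scale (adjusted p = 0.00022, 0.0053 and 0.0059).

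**Figure D5:**
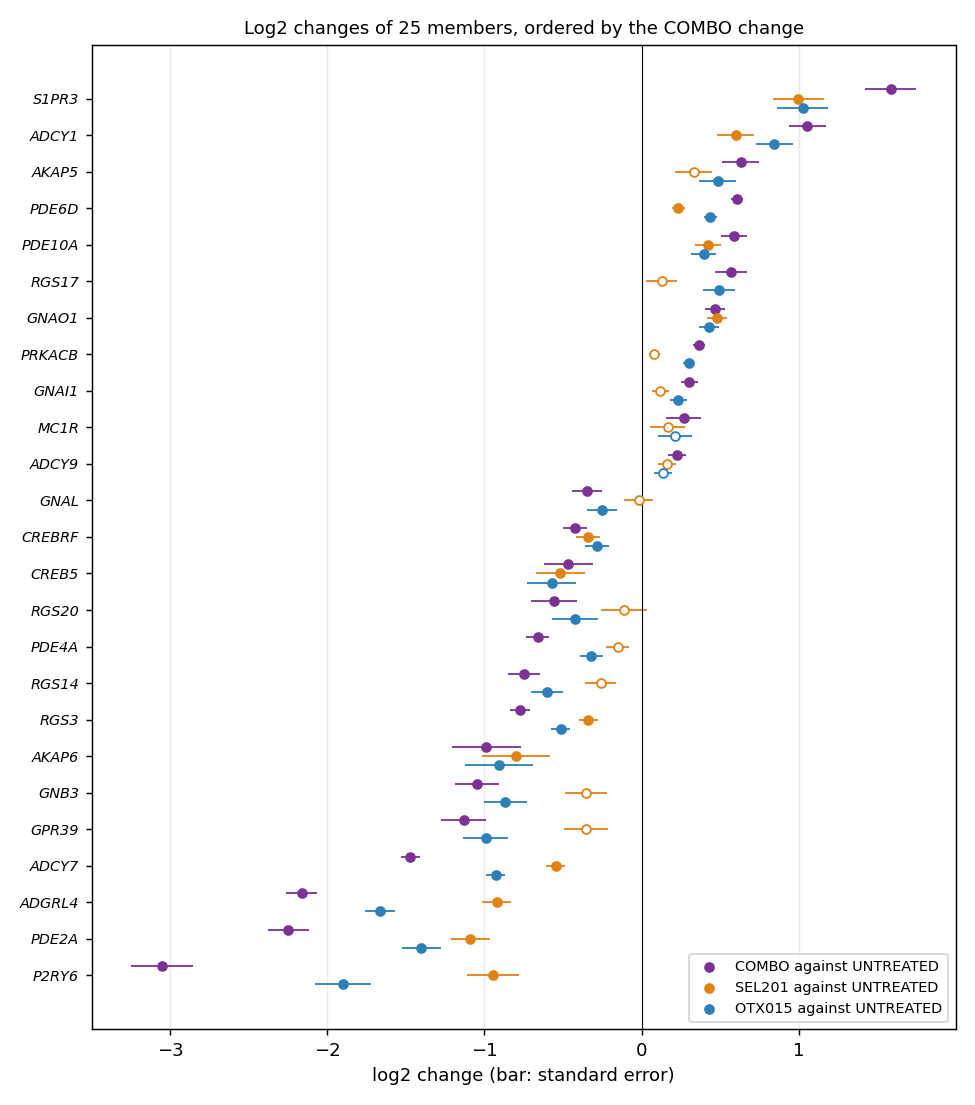
Log2 change against UNTREATED (x axis) of 25 members, with bars for 1 standard error, in COMBO (purple), SEL201 (orange) and OTX015 (blue), ordered by the COMBO change. Filled points passed an adjusted p of 0.05 in edgeR, and COMBO lies outside both single agents for P2RY6, PDE2A, ADGRL4 and ADCY7 at the bottom and for S1PR3 and ADCY1 at the top.

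Set against the single agents, COMBO had more members called against SEL201 than against OTX015. In COMBO against SEL201, 19 members were higher (17.3%, background 18.8%) and 30 lower (27.3%, background 21.2%). In COMBO against OTX015, 4 members were higher (3.64%, background 2.9%) and 8 lower (7.27%, background 4.01%), and with the replicate block 12 were higher (10.9%, background 10.0%) and 22 lower (20%, background 12.2%). Of these 12 unblocked calls, 5 kept theirs whichever library was left out: P2RY6, PDE2A, ADCY7, ADGRL4 and ARRB1. The last 2 were lower in COMBO by log2 changes of -0.50 ± 0.10 (edgeR adjusted p = 0.0096) and -0.23 (adjusted p = 0.0068).

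The interaction asks whether the log2 change in COMBO differs from the SEL201 change plus the OTX015 change. By edgeR, 0 members were higher and 0 lower at an adjusted p under 0.05, against a background of 0.21% and 0.0699% of all genes. DESeq2 called 1 member, with no share over all genes to set beside it. With the replicate block, 4 members were higher (3.64%, background 4.02%) and 5 lower (4.55%, background 2.73%). GNAO1 had the smallest p in both fits: its interaction was -0.44 ± 0.06 with the block (adjusted p = 1.5e-05), and the unblocked adjusted p was 0.057.

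Promoter windows were found for 83 of the 110 members. The CRE letters were in 1.85% of all 35116 RefSeq windows. A gene can have several windows, and by gene they were in those of 3.31% of the 5774 tested genes with a window and of 5 members (6.02%), GPR3, GNAO1, GNG7, S1PR2 and PDE4A, of which 1 was higher and 3 were lower in COMBO. The AP-1 letters were in 4.95% of windows, in those of 5.42% of tested genes and in those of 9 members (10.8%), ADCY7, ADGRL4, CREB5, F2RL2, GPR176, GPR3, LPAR2, PDE4D and PDE6B, of which 0 were higher and 7 lower. The E-box CACGTG, the letters MITF binds among other factors, was in 7.26% of windows, in those of 11.5% of tested genes and in those of 9 members (10.8%), of which 1 was higher and 4 were lower. Each motif was sought on both strands, and none of the 3 holds another. CRE and AP-1 share their first 4 letters where AP-1 is written TGACTCA. Over all tested genes with a window, 48.9% of the 313 with the AP-1 letters were lower in COMBO and 20.8% higher, against 29.9% and 30.5% of the 5461 without. For CRE, 19.9% of 191 genes were lower and 39.3% higher, against 31.3% and 29.7% of the 5583 without. For the E-box, 31.3% of 664 genes were lower and 26.1% higher, against 30.9% and 30.5% of the 5110 without. Of the members counted, GPR3 and S1PR2 lost their COMBO calls without 1 of several libraries (adjusted p up to 0.16 and 0.18), and CREB5 without COMBO replicate 2 (adjusted p = 0.092). The motifs were chosen with the results known, and a match is a description of letters only.

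Genes of the same pathways outside the symbol rule were followed on lists. Among 10 measured PKA inhibitors, EPAC and CREB partner genes, 2 rose and 5 fell in COMBO (background 28.3% and 29.6%). RAPGEF3, the cyclic AMP sensor EPAC1, averaged 17.8 ± 0.725 CPM in COMBO, 33.9 ± 3.89 CPM in SEL201, 25.9 ± 2.86 CPM in OTX015 and 53.3 ± 6.56 CPM in UNTREATED (SD, n = 3 each), a log2 change of -1.58 in COMBO by edgeR (adjusted p = 5.5e-08). RAP1GAP, which turns off the EPAC target RAP1, fell by 1.02 (adjusted p = 1.5e-07), and CREM, a CREB relative, fell by 0.43 (adjusted p = 9.7e-06). PKIA, an inhibitor of the PKA catalytic subunit, rose by 0.51 (adjusted p = 1.8e-06), beside the rise of PRKACB. Of 12 measured CREB target genes 5 rose and 3 fell (background 28.3% and 29.6%). EGR1, FOS and PER1 rose by 1.78, 1.67 and 0.46 (adjusted p = 5.5e-09, 2.8e-09 and 4.7e-06). The 3 that fell were CREM, given above, and BDNF and MITF, by 0.58 and 0.17 (adjusted p = 0.00099 and 0.03). MITF was also lower in SEL201 and OTX015, by 0.24 in each (adjusted p = 0.014 and 0.0071).

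Of 17 measured receptors with other symbols, 4 rose and 9 fell in COMBO (background 28.3% and 29.6%). ADORA1, the Gi-coupled adenosine receptor, averaged 26.4 ± 1.91 CPM in COMBO, 70.7 ± 1.64 CPM in SEL201, 43.3 ± 0.555 CPM in OTX015 and 128 ± 4.89 CPM in UNTREATED (SD, n = 3 each), a log2 change of -2.27 in COMBO by edgeR (adjusted p = 1.7e-11). VIPR1, a Gs-coupled receptor of vasoactive intestinal peptide, averaged 57.0 ± 12 CPM in COMBO, 145 ± 24.1 CPM in SEL201, 71.6 ± 9.08 CPM in OTX015 and 295 ± 41.9 CPM in UNTREATED, a log2 change of -2.38 (adjusted p = 1.5e-08). CHRM3, a Gq-coupled muscarinic receptor, went the other way, averaging 141 ± 7.5 CPM in COMBO, 77.0 ± 2.41 CPM in SEL201, 98.1 ± 5.87 CPM in OTX015 and 45.0 ± 5.56 CPM in UNTREATED, a log2 change of 1.65 (adjusted p = 1.5e-09). The complement receptor C3AR1 averaged 3.88 ± 0.488 CPM in COMBO, 8.21 ± 0.787 CPM in SEL201, 3.59 ± 0.644 CPM in OTX015 and 22.4 ± 0.149 CPM in UNTREATED. Its log2 change by edgeR was -2.52 in COMBO (adjusted p = 4.9e-09) and -2.65 in OTX015 (adjusted p = 1e-08). COMBO and OTX015 overlapped, and the C3AR1 interaction was 1.57 (adjusted p = 0.0087).

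Of 8 measured Gq and G12/13 effector genes, 3 rose and 4 fell in COMBO (background 28.3% and 29.6%). The phospholipases C beta split, as PLCB4 rose by 1.20 on the log2 scale and PLCB2 fell by 1.46 (edgeR adjusted p = 5.2e-08 and 4.9e-07). ITPR1, the calcium channel that inositol trisphosphate opens, rose by 0.65 (adjusted p = 7.4e-07), and ARHGEF25, a Gq-activated exchange factor for RhoA, fell by 0.79 (adjusted p = 4.7e-08). Of 7 measured G protein chaperones and activators, 4 rose and 2 fell (background 28.3% and 29.6%). GPSM3, which binds Gi alpha and G beta subunits, fell by 1.71 (adjusted p = 1.7e-09), and GPSM2, RASD1 and RASD2 rose by 0.30, 0.85 and 0.89 (adjusted p = 4.8e-05, 0.0005 and 0.00024). Of 12 measured ligand genes and enzymes that make or break ligands, 4 rose and 5 fell (background 28.3% and 29.6%). The prostaglandin synthesis genes PTGS2 and PTGES fell by 1.91 and 1.95 (adjusted p = 6.8e-07 and 2.4e-06), while the prostaglandin receptor gene PTGER4 had a log2 change of -0.13 (adjusted p = 0.37). TAC1, the precursor of substance P, rose by 2.28, and PTHLH, a ligand of a Gs-coupled receptor, fell by 1.07 (adjusted p = 1e-07 and 1.1e-05).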

How the data were processed

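The deposited table holds raw counts per gene, 1 column per library, for 12 libraries. Per the submitters' processing notes, the tools were STAR 2.5.4b, featureCounts, SAMtools 1.9, Trimmomatic, FastQC and DESeq2, and the build hg19, with no roles given. Which annotation, gene filter and strand setting they used is not given in the sources used here. Per the labels' protocols, libraries were stranded, poly(A)-selected and paired-end.

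Differential expression was tested over all 12 libraries in R 4.3.3 with glmQLFit and glmQLFTest of edgeR 4.0.16 on 4 group means, after TMM scaling and filterByExpr, which removed 0 genes, and with Benjamini-Hochberg adjustment over 8579 genes at 0.05. Each standard error was derived from the log2 change and its F statistic. CPM values use TMM library sizes. Levels per kilobase use exon lengths of GENCODE v29, from which exon overlaps between genes were also taken, on a build other than that of the counts. Promoter windows are RefSeq's. Members and lists were chosen with earlier results of these data known.

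Values in every library are given for up to 4 members per role with the largest called COMBO change, for MC1R, PRKACB and, where measured, 4 other core genes, for members called in the interaction (0 without the replicate block), and for the few others named as chosen after their values were seen. From each list outside the symbol rule, up to 4 genes with the lowest p are named. BDNF and MITF are named besides, so that every CREB target gene that fell in COMBO is given.

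The replicate numbers were treated as pairing the libraries only in the fits with the replicate block and in the sign-flip test. All other p-values come from tests that ignore these numbers, so a change that did not pass there may pass with the block. Deviations from the group means correlated at 0.26 to 0.57 over all 18 same-numbered pairs of libraries and at -0.46 to 0.19 over the other 36. The biological coefficient of variation was 7.92% without and 4.35% with the number as a block. The alternatives were this block, DESeq2 1.42.0, RLE size factors, no filter, a filter of 10 CPM in 3 libraries, fits of the compared groups only, and leaving out each library or the 4 numbered 3. No pair of libraries in a group looked like 1 library counted again. A result on 1 member is not reported here.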

Additional observations from a re-analysis of the deposited data

Results flagged for a closer look

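With the replicate number as a block, the log2 change of some members in COMBO differed from the SEL201 change plus the OTX015 change by edgeR, and none of those given here passed without the block. The difference was positive for AKAP6 at 0.70 ± 0.20 (adjusted p = 0.027), CREB5 at 0.63 ± 0.20 (adjusted p = 0.049) and ADGRL4 at 0.42 ± 0.13 (adjusted p = 0.048). All 3 had a negative log2 change in each single agent, and the COMBO change was less negative than the sum. The unblocked adjusted p was 0.49, 0.36 and 0.30 in that order. AKAP6 rests on an UNTREATED group in which 1 library held 34.5 CPM and another 15.6 CPM.

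The difference was negative for 5 members: GNAO1 at -0.44 ± 0.06 (adjusted p = 1.5e-05), ADCY1 at -0.38 ± 0.08 (adjusted p = 0.0028), RGS12 at -0.27 ± 0.07 (adjusted p = 0.01), PDE4B at -0.26 ± 0.08 (adjusted p = 0.042) and PDE4A at -0.19 ± 0.06 (adjusted p = 0.048), again by edgeR with the block. GNAO1, ADCY1 and RGS12 rose with each single agent, and in COMBO by less than the sum. PDE4A was at 234, 237 and 222 CPM in COMBO, below every library of the other groups. The unblocked adjusted p of these 5 was 0.057, 0.47, 0.29, 0.89 and 0.66 in that order.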

How the results depend on the processing

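With the replicate block, 22 members were higher (20%, background 18%) and 28 lower (25.5%, background 19.1%) in SEL201 against UNTREATED. COMBO against OTX015 then had 12 higher (10.9%, background 10%) and 22 lower (20%, background 12.2%). The interaction had 4 higher (3.64%, background 4.02%) and 5 lower (4.55%, background 2.73%). No share over all genes was taken for the other counts in this section. In COMBO against OTX015, 1 member was higher when the compared groups alone were fitted and 1 without the 4 libraries numbered 3. In the interaction, 1 member was lower by DESeq2 and 1 without the libraries numbered 3. With 1 library left out, the counts higher and lower ranged from 9 to 13 and from 10 to 16 in SEL201, from 26 to 30 and from 30 to 33 in OTX015, from 30 to 34 and from 37 to 43 in COMBO, from 17 to 22 and from 25 to 31 in COMBO against SEL201, from 0 to 5 and from 6 to 9 in COMBO against OTX015, and from 0 to 0 and from 0 to 1 in the interaction, the 1 without OTX015 replicate 3. The SEL201 value of GNAL, -0.02, turned to 0.04 without UNTREATED replicate 2 and to 0.006 without SEL201 replicate 3, within a range of -0.073 to 0.04 when 1 library was left out. The cause was not tested for any of these. Calls kept without each library in turn were 16 of 26 in SEL201, 52 of 60 in OTX015, 63 of 74 in COMBO, 38 of 49 in COMBO against SEL201 and 5 of 12 in COMBO against OTX015. RLE size factors moved the median COMBO change of all genes by 0.003 on the log2 scale. The lowest member libraries hold few counts, 20 for P2RY6 in COMBO.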
